A study of Mus musculus with 10 samples.

Results

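The genes described here build the chromosome axis and the synaptonemal complex of meiosis and carry out meiotic recombination. A list of 34 gene symbols was taken, and each symbol was matched to its Ensembl identifier in a table of 22891 genes. Rows were found for 28 of the 34. Spo11, Mei1, Syce3, Spata22, Terb2 and Stra8 were not analysed here. RNA came from whole ovaries of 3-week-old mice of the C57/Bl6/N;129SvEv7 strain that had received no hormone stimulation. The series held 5 libraries labelled control and 5 labelled Uba3 cKO, a conditional knockout of Uba3, which encodes the catalytic subunit of the NEDD8-activating enzyme. The labels do not name the Cre driver, the deleted exons or the full genotype of the controls, and nothing in them says that each ovary came from a separate animal. P-values therefore measure the spread between these samples, which may be technical in part.

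Meiosis in the female mouse begins before birth. Germ cells enter prophase, cut their own DNA, pair homologous chromosomes along a protein scaffold and repair the cuts as crossovers, and around birth the oocytes arrest in the dictyate stage. An ovary at weaning therefore holds arrested and growing oocytes inside follicles, and the machinery of pairing and recombination has mostly finished its work.

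All values are log2 units as deposited by the authors, and a difference of 1 corresponds to a 2-fold change. The library medians lay between 6.29 and 6.44. Sequencing depth behind the values is unknown. Low genes vary little between libraries: the median SD was 0.0425 for genes with means below 2 and 0.174 for means from 6 to 8. Differences of low genes may therefore be understated. Uba3 itself had a level of 10.12 ± 0.18 in the 5 controls and of 10.12 ± 0.069 (both SD, n = 5) in the Uba3 cKO group, so its level in the whole organ did not check the labels. The tissue label was checked on marker genes: Gdf9, an oocyte-secreted growth factor, stood at 12.30 ± 0.30 and 12.24 ± 0.30, and Amh, the hormone of growing follicles, at 13.74 ± 0.32 and 13.82 ± 0.155. All 18 growing-oocyte markers and all 10 granulosa markers had a mean above 3.32, the lowest mean tested. So did 15629 of the 22891 genes, and every erythroid, smooth muscle and surface epithelium marker. Passing this cut therefore does not tell tissues apart. In bulk tissue fewer cells of a type and less RNA per cell cannot be told apart.

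Short motifs were searched near the starts of these genes. Windows from 250 bases before to 50 bases after the start were available from RefSeq (build GRCm38.p6) for 27 of the 34 genes, in 32 windows. Windows for Meiob, Tex11, Tex15, Majin, Terb2, Spo11 and Ythdc2 were not used here. The letters TTCCCGC, the type of site read by E2F factors, stood on either strand in 12 of the 27 genes (44.4%), against 5.29% of 27025 genes with a window. The palindrome CACGTG, an E-box, stood in 7 genes (25.9%) against 8.09%, and CNCCTCAG, the type of site reported for STRA8, in 7 genes (25.9%) against 9.12%. Of the 27 genes, 12 held none of the 3 motifs, against 21514 of the 27025. Genes of general DNA repair and cohesion, described further on as mitotic counterparts, held the E2F-type letters in 3 of 8 (37.5%), the STRA8-type in 2 (25.0%) and the E-box in 1 (12.5%). A further list of meiotic genes held them in 6 of 19 (31.6%), 1 (5.26%) and 4 (21.1%). Nothing particular to these genes is read from the motifs. The windows of these genes had a median GC content of 60.3% against 52.7% over all windows, and among windows with a GC content of at least 55% the E2F-type letters stood in 9.57% of genes, the E-box in 11.1% and the STRA8-type in 11.4%. A match to letters is a description and does not show that a factor binds. In 1 window of Syce2 and 1 of Prdm9 an E2F-type and a STRA8-type match overlap by letters.

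The 5 windows below were chosen, with the levels in view, because they show these motifs in genes of high, middle and low level. Capitals mark the motif letters, and each line reads 5′ to 3′ on the strand of the gene.
Syce2, chr8:84872008-84872307, plus strand: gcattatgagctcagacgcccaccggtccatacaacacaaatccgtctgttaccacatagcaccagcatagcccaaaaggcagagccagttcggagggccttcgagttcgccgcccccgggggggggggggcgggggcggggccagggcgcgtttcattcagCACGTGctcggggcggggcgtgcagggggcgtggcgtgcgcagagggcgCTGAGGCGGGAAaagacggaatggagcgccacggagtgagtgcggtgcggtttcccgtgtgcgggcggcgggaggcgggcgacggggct
Tex14, chr11:87404815-87405114, plus strand: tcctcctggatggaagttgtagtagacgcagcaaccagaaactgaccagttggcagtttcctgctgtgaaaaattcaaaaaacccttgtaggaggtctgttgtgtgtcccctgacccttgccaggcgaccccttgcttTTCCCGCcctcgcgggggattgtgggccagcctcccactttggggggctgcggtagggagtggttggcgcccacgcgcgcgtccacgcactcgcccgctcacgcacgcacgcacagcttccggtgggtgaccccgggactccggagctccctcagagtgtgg
Stag3, chr5:138280259-138280558, plus strand: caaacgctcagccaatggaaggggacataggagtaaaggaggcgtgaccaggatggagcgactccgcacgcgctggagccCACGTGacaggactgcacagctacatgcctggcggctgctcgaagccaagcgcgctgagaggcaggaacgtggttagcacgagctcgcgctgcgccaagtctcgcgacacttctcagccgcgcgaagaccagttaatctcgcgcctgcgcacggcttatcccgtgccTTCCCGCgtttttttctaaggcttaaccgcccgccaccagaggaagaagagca
Sycp3, chr10:88459337-88459636, plus strand: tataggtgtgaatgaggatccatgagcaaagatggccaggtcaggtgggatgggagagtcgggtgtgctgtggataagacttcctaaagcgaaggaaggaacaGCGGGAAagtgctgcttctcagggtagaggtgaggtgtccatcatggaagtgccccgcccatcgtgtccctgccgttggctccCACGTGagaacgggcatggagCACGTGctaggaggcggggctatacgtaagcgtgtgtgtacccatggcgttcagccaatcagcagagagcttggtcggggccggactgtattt
Hormad1, chr3:95559427-95559726, plus strand: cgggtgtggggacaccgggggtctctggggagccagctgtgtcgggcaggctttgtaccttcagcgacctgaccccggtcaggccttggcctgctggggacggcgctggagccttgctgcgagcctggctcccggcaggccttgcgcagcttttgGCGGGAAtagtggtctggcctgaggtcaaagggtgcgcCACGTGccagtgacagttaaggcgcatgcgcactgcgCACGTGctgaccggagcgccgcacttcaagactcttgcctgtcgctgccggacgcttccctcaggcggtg
Syce2 and Tex14 are among the most abundant of these transcripts, Stag3 and Sycp3 are of middle rank, and Hormad1 is the lowest of all. The Hormad1 window holds 2 E-boxes and 1 E2F-type site, as many of each as the Sycp3 window. Their mean levels were 0.096 and 4.69.

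**Figure D1:**
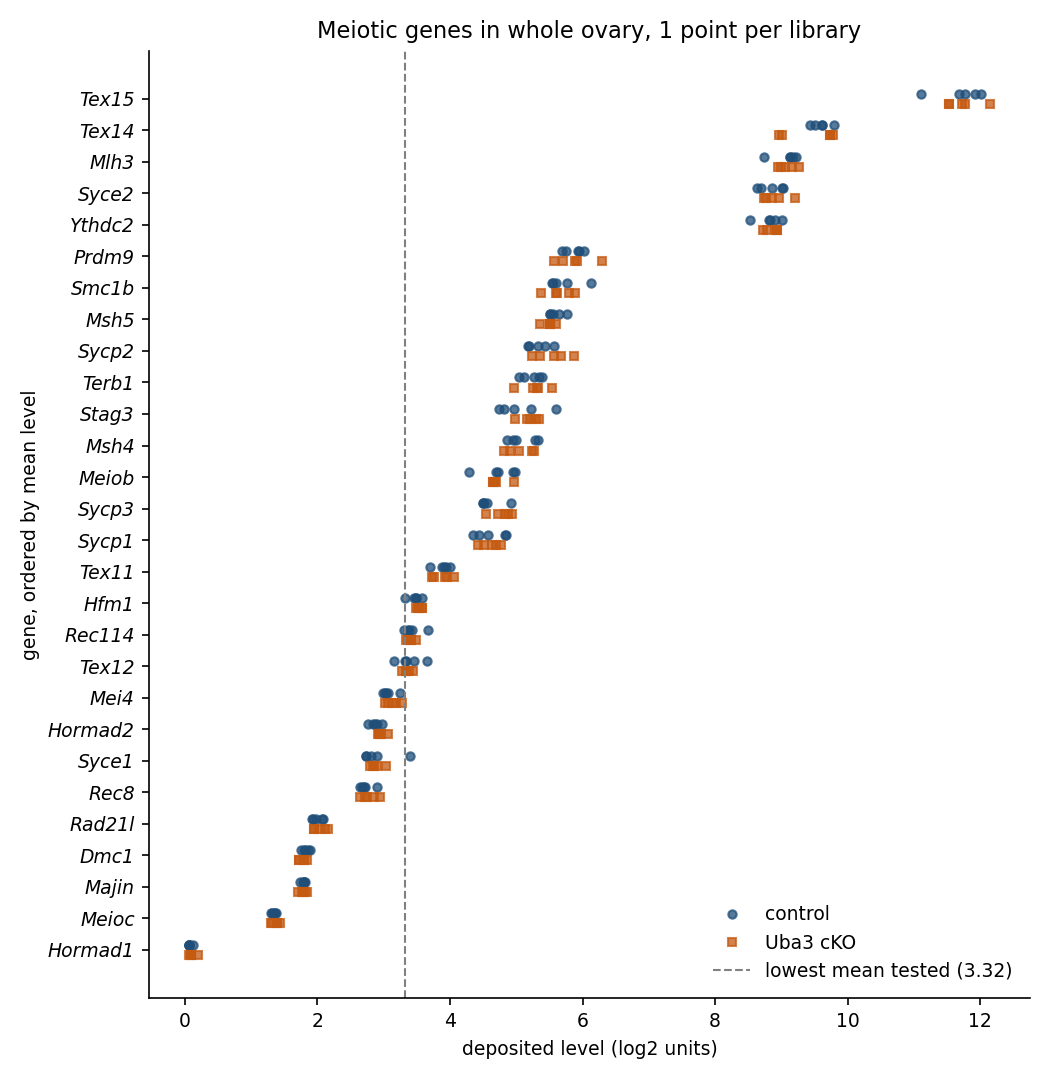
Deposited level of the 28 measured genes (x axis, log2 units) with genes ordered by mean level (y axis); circles are the 5 control libraries, squares the 5 Uba3 cKO libraries, and the dashed line is the lowest mean tested (3.32). Tex15, Tex14, Mlh3, Syce2 and Ythdc2 have means from 8.84 to 11.72, the other 23 genes have means of at most 5.87, and the groups overlap in every tested gene.

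Levels of the 28 genes fell into a high and a low range. Tex15, Tex14, Mlh3, Syce2 and Ythdc2 had means of 11.72, 9.52, 9.08, 8.88 and 8.84 over the 10 libraries. The next gene, Prdm9, stood at 5.87, and no gene lay between. The lowest was Hormad1 at 0.096. A mean of at least 3.32, which is 10 on the linear scale, was required for testing, and 19 of the 28 genes reached it. The 9 that did not were Mei4 at 3.11, Hormad2 at 2.92, Syce1 at 2.90, Rec8 at 2.75, Rad21l at 2.02, Dmc1 at 1.80, Majin at 1.79, Meioc at 1.35 and Hormad1. Just inside the threshold stood Tex12 at 3.37 and Rec114 at 3.42. Divided by the length of the longest annotated transcript, the order of the leading genes was Tex15 at 8.65 log2 units per kilobase, Syce2 at 8.12, Tex14 at 7.26, Mlh3 at 6.63 and Ythdc2 at 5.99, followed by Sycp3 at 4.47.

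No gene of the list passed the test between ovaries labelled Uba3 cKO and controls. Of the 19 tested, 0 passed an adjusted p of 0.05 in limma, where 0 of all 15629 genes tested (0%) did. At an unadjusted p under 0.05 there were also 0 of 19, against 1.79% of all genes. The groups did not overlap in 0 of 19, against 0.32% of all genes. The mean was higher under the Uba3 cKO label in 12 genes and lower in 7, with a median difference of 0.0031 log2 units against 0.0003 over all genes. Differences ran from -0.15 for Tex14 to 0.20 for Sycp2. The 95% intervals stayed within 0.5 log2 units either side of 0 for 18 of the 19 genes (94.7%, against 94.9% of all genes) and within 1 unit for all 19. The exception at 0.5 was Tex14, whose interval reached -0.50.

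**Figure D2:**
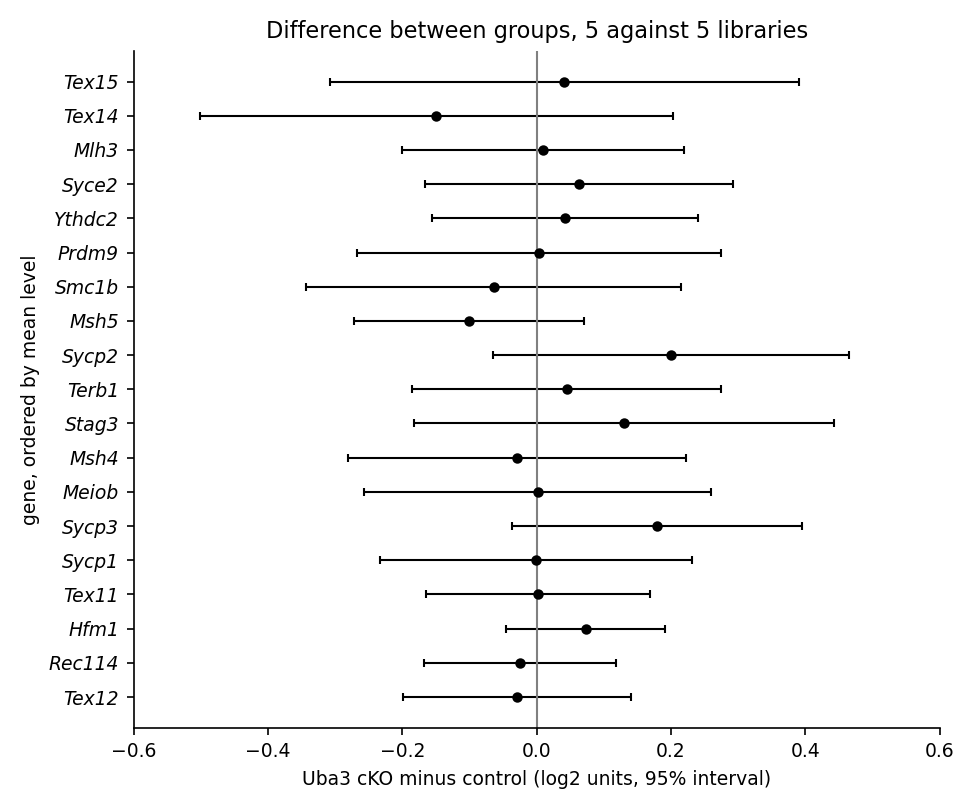
Difference in mean level, Uba3 cKO minus control (x axis, log2 units), for the 19 tested genes ordered by mean level (y axis); points are the fitted differences and bars their 95% intervals from limma, 5 against 5 libraries. Every interval includes 0, and the widest, of Tex14, runs from -0.50 to 0.20.

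The synaptonemal complex is a ladder of axial cores joined by transverse filaments and a central element. Among its axial and filament genes Sycp2, which encodes an axial core protein, had the highest level. Sycp2 stood at 5.19, 5.44, 5.18, 5.33 and 5.58 in control replicates 1 to 5 and at 5.57, 5.68, 5.24, 5.87 and 5.36 in Uba3 cKO replicates 1 to 5. The groups overlapped, with the highest value in Uba3 cKO replicate 4. Its difference was 0.20 (standard error 0.12, 95% interval -0.065 to 0.46, limma unadjusted p = 0.127), and it ran from 0.12 without Uba3 cKO replicate 4 to 0.27 without Uba3 cKO replicate 3 (unadjusted p = 0.0395). Sycp3, the partner of SYCP2 in the axial core, had 4.60 ± 0.18 against 4.78 ± 0.16 (control against Uba3 cKO, SD, n = 5 each), a difference of 0.18 and the smallest unadjusted p of the list, 0.0964. Leaving out 1 library gave Sycp3 differences from 0.14 without Uba3 cKO replicate 4 to 0.26 without control replicate 2 (limma unadjusted p = 0.0103). Neither Sycp2 nor Sycp3 passed adjustment over all genes in any of these runs (lowest limma adjusted p = 0.9993). The Sycp3 value is uncertain, because 52.2% of its annotated exon bases overlap Chpt1 on the opposite strand, a gene at 9.73, and whether counting used strand is not given in the sources used here. Sycp1, the transverse filament, stood at 4.61 ± 0.23 and 4.61 ± 0.14.

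Central element genes were very unequal. Syce2, which forms fibres of the central element together with TEX12, stood at 8.63, 9.03, 9.01, 8.70 and 8.85 in control replicates 1 to 5. In Uba3 cKO replicates 1 to 5 the Syce2 values were 9.20, 8.86, 8.77, 8.96 and 8.74. Both groups span nearly the same range, and the difference was 0.063 (standard error 0.11, 95% interval -0.17 to 0.29). Tex12 had a mean of 3.37, and per kilobase of transcript Syce2 lay 27.0-fold above it, by 4.55 to 5.00 log2 units in single libraries. Syce1, another central element gene, lay 54.5-fold below Syce2 per kilobase. Syce1 was under the tested range at 2.92 ± 0.28 in controls against 2.88 ± 0.089 in Uba3 cKO ovaries.

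Meiotic cohesins hold sister chromatids together and anchor the axis. Smc1b, the core subunit found in germ cells, stood at 5.53, 6.14, 5.55, 5.77 and 5.60 in control replicates 1 to 5. Under the Uba3 cKO label Smc1b stood at 5.62, 5.88, 5.37, 5.79 and 5.61 in replicates 1 to 5. Control replicate 2 was the highest, and the other 4 controls lay inside the range of the Uba3 cKO libraries; the difference was -0.064 (standard error 0.13, 95% interval -0.34 to 0.21). Stag3, the accessory subunit of all meiotic cohesins, stood at 4.82, 5.60, 4.97, 4.74 and 5.22 in control replicates 1 to 5 and at 5.34, 5.17, 5.21, 5.30 and 4.98 in the Uba3 cKO replicates, again with the highest value in control replicate 2. The Stag3 difference of 0.13 became 0.26 without that library (limma unadjusted p = 0.0364, adjusted p = 1), 0.067 without control replicate 1 and 0.047 without control replicate 4. The alternative kleisin subunits Rec8 and Rad21l had means of 2.75 and 2.02 and were not tested.

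HORMA-domain proteins mark axes that have not yet paired. Hormad2, which recruits a checkpoint kinase to unpaired axes, stood at 2.85, 2.87, 2.91, 2.77 and 2.98 in control replicates 1 to 5. The Uba3 cKO libraries had 3.06, 2.93, 2.92, 2.96 and 2.95, inside or just above the control range. Hormad1 ran from 0.070 to 0.20 over all 10 libraries. Neither gene was tested.

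Genes for making the breaks were low except Prdm9, the histone methyltransferase whose zinc fingers place recombination hotspots. Prdm9 stood at 5.75, 5.95, 5.70, 5.94 and 6.02 in control replicates 1 to 5 and at 5.92, 5.71, 5.89, 5.57 and 6.29 in Uba3 cKO replicates 1 to 5. Both the lowest and the highest library carried the Uba3 cKO label, and the means differed by 0.0031 (standard error 0.13, 95% interval -0.27 to 0.27). Rec114, a partner of the break-forming enzyme, had a mean of 3.42, with 26.9% of its exon bases opposite Nptn, a gene at 10.53. Mei4, which acts with REC114, had a mean of 3.11.

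Among the genes of strand exchange Meiob, a single-stranded DNA binding protein of recombination sites, stood at 4.98, 4.70, 4.29, 4.73 and 4.95 in control replicates 1 to 5. Uba3 cKO replicates 1 to 5 had Meiob values of 4.65, 4.69, 4.70, 4.65 and 4.96. Control replicate 3 was the lowest and the means differed by 0.0013 (standard error 0.12, 95% interval -0.26 to 0.26). Dmc1, the recombinase specific to meiosis, had a mean of 1.80 and ran from 1.73 to 1.90.

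Crossover genes were led by Mlh3, which encodes a subunit of the nuclease that resolves crossovers. Mlh3 stood at 9.17, 9.12, 8.74, 9.13 and 9.22 in control replicates 1 to 5 and at 8.95, 9.06, 9.16, 8.99 and 9.27 in Uba3 cKO replicates 1 to 5. Control replicate 3 was again the lowest, and the difference was 0.0094 (standard error 0.097, 95% interval -0.20 to 0.22). Msh4 and Msh5 encode the partners of a mismatch-repair-like clamp that stabilises crossover intermediates. Msh4 stood at 5.08 ± 0.21 and 5.06 ± 0.20 and Msh5 at 5.60 ± 0.11 and 5.50 ± 0.087, so that Msh5 was 1.61-fold above Msh4 per kilobase. Tex11, an X-linked crossover factor, and Hfm1, a helicase, had means of 3.89 and 3.50.

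Telomere attachment was represented by Terb1, which links telomeres to the nuclear envelope. Terb1 stood at 5.12, 5.38, 5.35, 5.05 and 5.27 in control replicates 1 to 5 and at 5.53, 5.33, 5.25, 5.31 and 4.96 in Uba3 cKO replicates 1 to 5. The Uba3 cKO label held both the highest and the lowest value, and the difference was 0.045 (standard error 0.11, 95% interval -0.19 to 0.27). Majin, its partner in the envelope, lay 5.86-fold lower per kilobase.

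Meiotic entry depends on the RNA helicase YTHDC2 and its partner MEIOC. Ythdc2 stood at 8.91, 8.82, 8.52, 8.82 and 9.02 in control replicates 1 to 5 and at 8.72, 8.94, 8.79, 8.93 and 8.92 in Uba3 cKO replicates 1 to 5. The lowest value was that of control replicate 3, and the difference was 0.042 (standard error 0.091, 95% interval -0.16 to 0.24). Meioc had a mean of 1.35, 114-fold below Ythdc2 per kilobase. Meioc, Majin and Syce1 lay under the tested range, so their folds are rough.

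Tex14 and Tex15 had the highest deposited levels, though per kilobase Syce2 (8.12) lay above Tex14 (7.26). Tex15, needed for meiotic recombination and transposon silencing in male germ cells, stood at 11.77, 11.68, 11.10, 11.92 and 12.02 in control replicates 1 to 5. Uba3 cKO replicates 1 to 5 had Tex15 values of 11.53, 11.78, 11.52, 11.72 and 12.14, and the difference was 0.041 (standard error 0.16, 95% interval -0.31 to 0.39). Tex14, which keeps the bridges between germ cells open, stood at 9.51, 9.60, 9.44, 9.62 and 9.79 in control replicates 1 to 5 and at 9.73, 9.01, 9.74, 8.96 and 9.77 in the Uba3 cKO replicates. Uba3 cKO replicates 2 and 4 lay below every other library, and the other 3 lay within the range of the controls. The Tex14 difference was -0.15 (standard error 0.16), which became -0.042 without Uba3 cKO replicate 2 and -0.029 without Uba3 cKO replicate 4.

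The libraries also differed in the level of oocyte markers, and the genes were read along that level. The mean of the 18 growing-oocyte markers was 10.75 ± 0.31 for controls and 10.74 ± 0.355 for Uba3 cKO (SD, n = 5 each; p = 0.944, two-sided exact permutation test). The lowest library was Uba3 cKO replicate 5 at 10.26 and the highest control replicate 3 at 11.14, a 1.85-fold range. For each gene a slope was fitted in limma, in log2 units per log2 unit of these markers, with the group as a covariate. A slope of 1 would be a gene that moves in step with the markers, and none of the genes described here is a marker.

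Slopes on the oocyte markers were highest for Syce2, Stag3 and Terb1, and lowest for Tex15, the most abundant gene. Slopes were positive in 13 of the 19 tested genes and negative in 6, with a median of 0.19 against -0.0061 over all genes. Over all genes 7619 of 15629 slopes were positive. The count was 2415 of 3680 for genes with means from 3.32 to 6 (median 0.080). It was 3549 of 9207 for those with means of at least 8 (median -0.061). Syce2 was called, with a slope of 0.49 (standard error 0.11, adjusted p = 0.0428), so 1 of 19 genes rose with the markers where 2.25% of all genes did. Of the negative slopes 0 of 19 were called, against 0.358% of all genes. A positive slope at an unadjusted p under 0.05 was found in 9.87% of all genes. It was found in 16.4% of the 3680 genes with means from 3.32 to 6 and in 5.33% of those with means of at least 8. The 19 genes lie in both ranges, Syce2 in the higher, and 7 of them (36.8%) had such a slope. They were Syce2, Terb1 (slope 0.47, adjusted p = 0.0556), Stag3 (0.48, adjusted p = 0.229), Msh4 (0.41, adjusted p = 0.197), Sycp1 (0.39, adjusted p = 0.18), Sycp3 (0.31, adjusted p = 0.253) and Tex11 (0.26, adjusted p = 0.21). All are limma values adjusted over all genes.

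**Figure D3:**
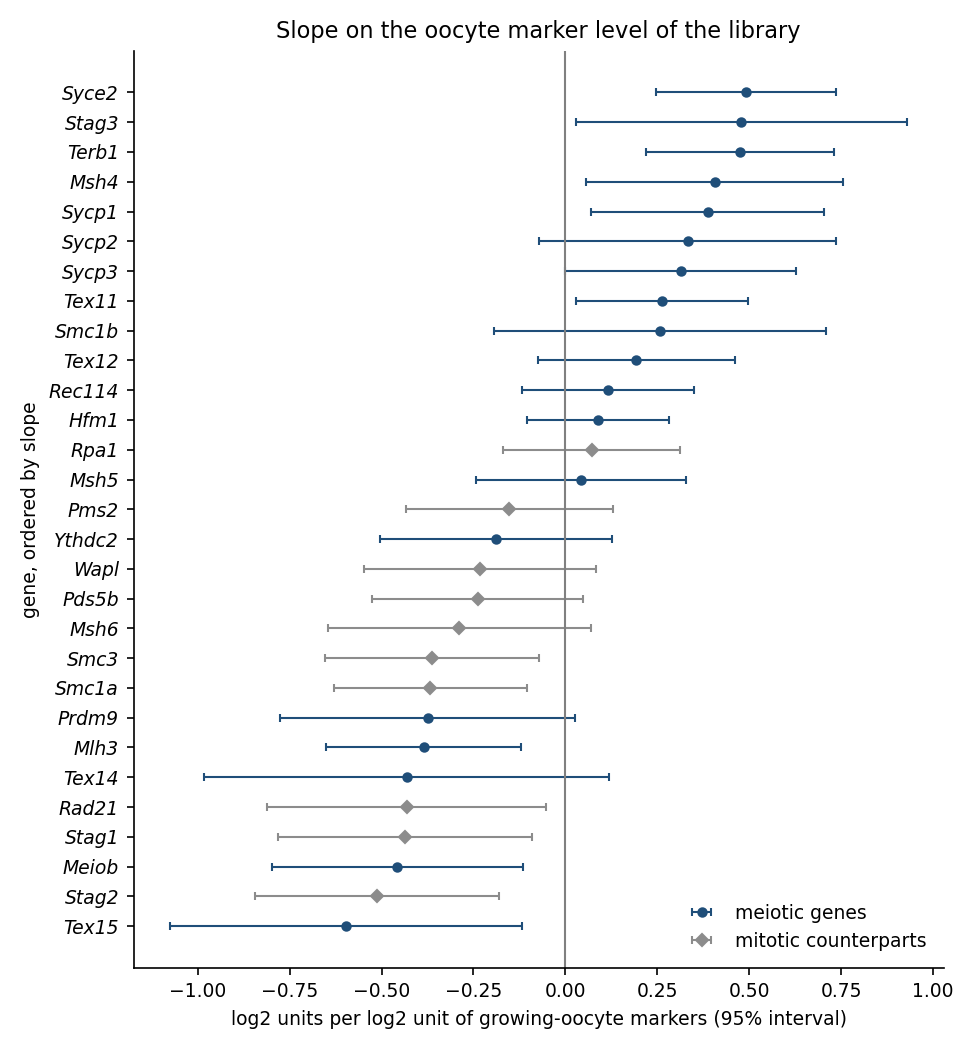
Slope of each gene on the mean level of 18 growing-oocyte markers (x axis, log2 units per log2 unit) with 95% intervals from limma, genes ordered by slope (y axis); circles are the 19 tested meiotic genes and diamonds 10 of the 12 mitotic counterparts. Syce2 has the highest slope (0.49) and Tex15 the lowest (-0.60).

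Negative slopes at an unadjusted p under 0.05 were found in 3 of 19 genes (15.8%), against 9.84% of all genes. Tex15 and Mlh3 have means above 8, where 14.3% of genes had such a slope, and Meiob lies in the range from 3.32 to 6, where 2.74% did. Tex15 had a slope of -0.60 (standard error 0.22, adjusted p = 0.172), Meiob of -0.46 (standard error 0.16, adjusted p = 0.148) and Mlh3 of -0.39 (standard error 0.12, adjusted p = 0.12). Control replicate 3 bears on these 3 genes. It had the highest oocyte marker level and the lowest value of each of them, and its values also fell with transcript length, by 0.18 log2 units per doubling, where the other 9 libraries lay between -0.074 and 0.069. Without control replicate 3 the slopes were -0.34 for Tex15, -0.28 for Meiob and -0.26 for Mlh3. The part of this length pattern in the slopes was not tested beyond a fit with it as a covariate. That fit gave -0.34 for Tex15, -0.30 for Meiob and -0.28 for Mlh3. Not all negative slopes moved toward 0 in it. The Tex14 slope went from -0.43 to -0.61 (limma adjusted p = 0.224) and the Prdm9 slope from -0.37 to -0.42. The Ythdc2 slope went from -0.19 to -0.013.

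The Syce2 slope lay between 0.42 and 0.56 in every alternative run, and its call was close to the threshold. Leaving out any 1 library except Uba3 cKO replicate 2 raised its adjusted p above 0.05, to between 0.0519 without control replicate 5 and 0.112 without Uba3 cKO replicate 5. With the length pattern as a covariate, Syce2 had an adjusted p of 0.0575, while Msh4 (slope 0.59, adjusted p = 0.0277) and Sycp2 (slope 0.56, adjusted p = 0.0476) were called.

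Against a second marker set the pattern was wider. It held 10 genes of germ cell identity, such as Ddx4, Dazl and Nobox, in place of the growing-oocyte markers. At an unadjusted p under 0.05, 11 of 19 genes (57.9%) had a positive slope on this level, against 7.35% of all genes. The share was 12.1% of genes with means from 3.32 to 6 and 3.71% of those with means of at least 8. Stag3 had a slope of 0.74 (unadjusted p = 0.00138, adjusted p = 0.113), Msh4 of 0.59 (adjusted p = 0.11), Smc1b of 0.55 (adjusted p = 0.276) and Sycp3 of 0.47 (adjusted p = 0.169). No gene of the 19 passed adjustment over all genes in this limma fit, and 0 had a negative slope at an unadjusted p under 0.05. The highest level of this set was in control replicate 2 (7.59), which was also the highest library for Stag3, Smc1b, Msh4, Tex12, Syce1 and Rec114.

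A slope on stroma markers was fitted after the values of Tex14 and Prdm9 had been seen, so it describes these libraries and is no independent test. The mean of 6 stromal markers, which include the collagens Col1a1 and Col3a1, ran from 9.86 in control replicate 5 to 10.87 in Uba3 cKO replicate 2. On this level Tex14 had a slope of -0.67 (standard error 0.14, limma adjusted p = 0.0421), and 1 of 19 genes was thus called with a negative slope, against 0.0448% of all genes, a share that is not stable. Over all genes, 194 were called in either direction, 2065 with library weights, and from 40 without Uba3 cKO replicate 4 to 276 without control replicate 3. None of the 19 was called with a positive slope, against 1.2% of all genes. Uba3 cKO replicates 2 and 4, where Tex14 was lowest, had the highest and the second highest stroma level, at 10.87 and 10.83. Control replicate 1 had a stroma level of 10.81 and a Tex14 value of 9.51. The call was lost when control replicate 2, 4 or 5 was left out, and likewise for Uba3 cKO replicates 2 to 5, with adjusted p from 0.068 to 0.212 and slopes from -0.74 to -0.56. Prdm9 had a slope of -0.42 on the stroma level (unadjusted p = 0.00916, adjusted p = 0.246).

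**Figure D4:**
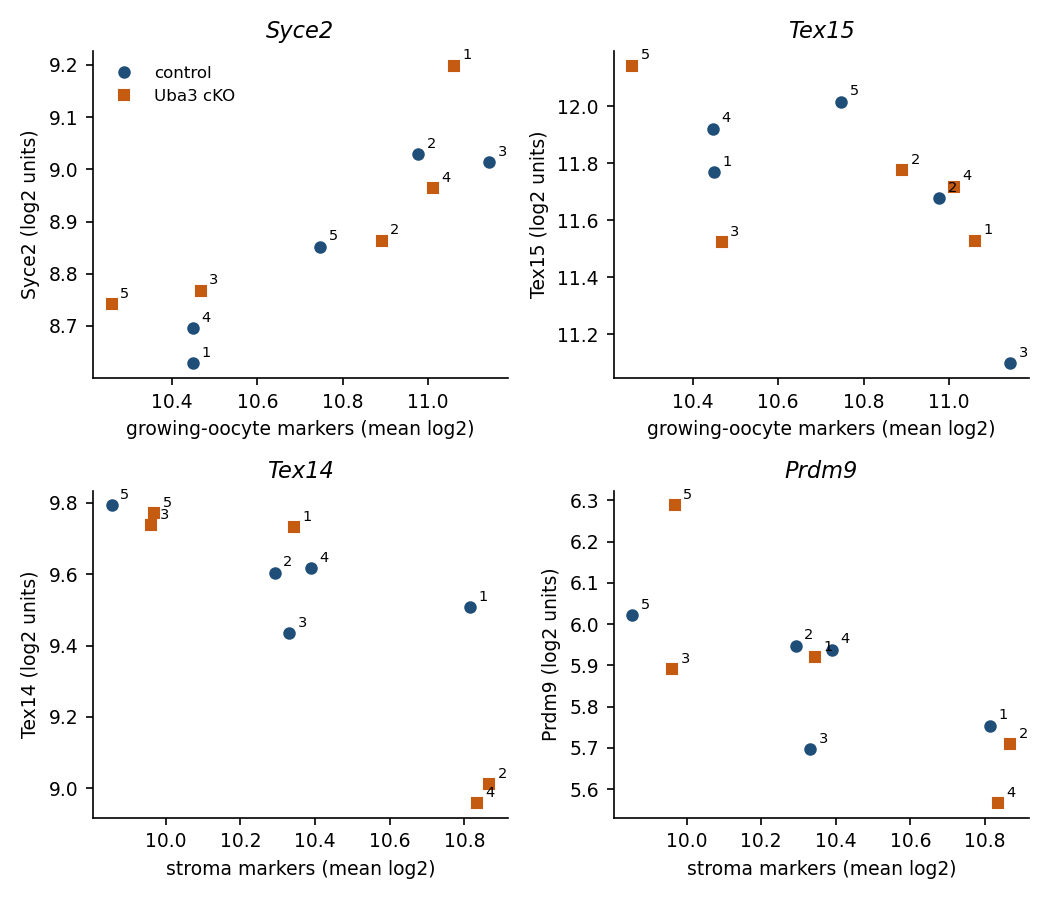
Upper panels show Syce2 and Tex15 (y axes, log2 units) against the mean level of growing-oocyte markers (x axes), and lower panels Tex14 and Prdm9 against the mean level of stroma markers; each point is 1 library, numbered by replicate, with circles for controls and squares for Uba3 cKO. Syce2 runs from 8.63 to 9.20 with the oocyte markers, Tex15 is lowest in control replicate 3 (11.10), and Tex14 is lowest in Uba3 cKO replicates 2 and 4 (9.01 and 8.96).

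Several of these genes have a counterpart in dividing cells that is related or has a like role. A list of 12 such genes was read beside them. The levels are those of the whole organ, and which cells they come from was not tested. Per kilobase of transcript, Smc1a, the cohesin core of dividing cells, was 39.3-fold above Smc1b, Rad21 was 375-fold above Rec8 and 474-fold above Rad21l, and Stag2 was 53.8-fold above Stag3. Rec8 and Rad21l lay under the tested range, so these folds are rough too. Rpa1, a subunit of the general single-stranded DNA binding complex, was 27.7-fold above Meiob. Msh6, of general mismatch repair, was 31.3-fold above Msh5. Mlh3 was the exception among the 8 pairs shown, at 6.63 log2 units per kilobase against 5.87 for Pms2, a related gene of mismatch repair. Mlh3 lay above Pms2 in all 10 libraries, by 0.49 to 0.93. These values divide by the longest annotated transcripts, 5463 bases for Mlh3 and 6157 for Pms2. With a shorter Pms2 transcript the order could differ, and which transcripts were present was not tested. The difference between Mlh3 and Pms2 was 0.83 ± 0.089 for controls and 0.70 ± 0.14 for Uba3 cKO (SD, n = 5 each).

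**Figure D5:**
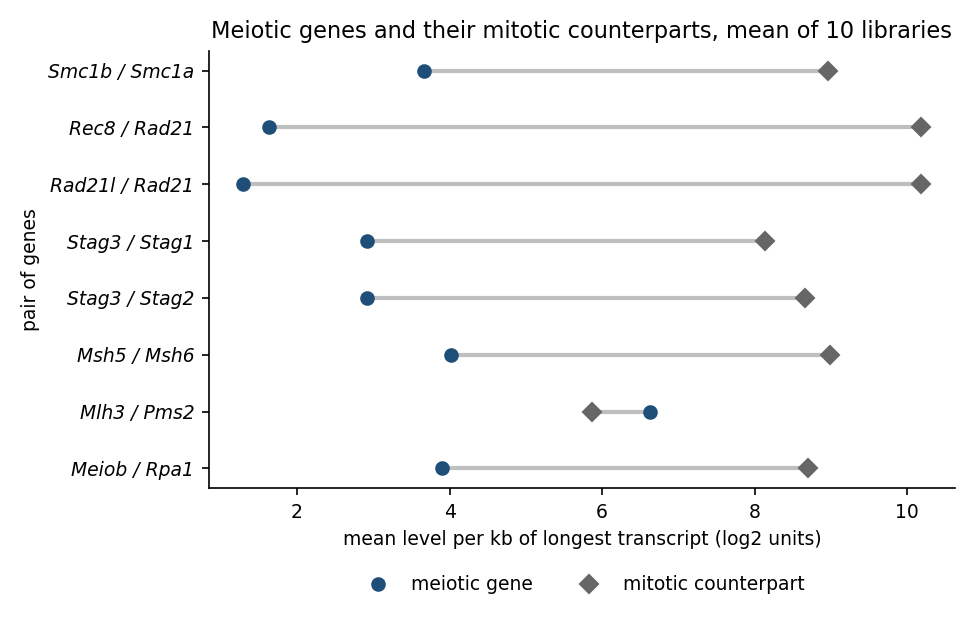
Mean level over 10 libraries per kilobase of the longest annotated transcript (x axis, log2 units) for 8 pairs of genes (y axis); circles are the meiotic genes and diamonds their mitotic counterparts, joined by a line. In 7 pairs the counterpart is the higher, and in the pair of Mlh3 and Pms2 the meiotic gene is.

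Of the 12 counterparts, 10 had a higher Uba3 cKO mean, the median difference was 0.039 and 0 passed limma at an adjusted or an unadjusted p under 0.05. Their slopes on the oocyte markers were negative in 10 of 12, against 5658 of the 9207 genes with a mean of at least 8. Rpa1, at 0.072, was among the exceptions. Of the 12 counterparts 6 had a negative slope at a limma unadjusted p under 0.05. Among them were Stag2 at -0.51 (adjusted p = 0.102), Rad21 at -0.43 (adjusted p = 0.202) and Smc1a at -0.37 (adjusted p = 0.134). That compares with 14.3% of all genes with a mean of at least 8, the range of all 12. Control replicate 3 was the lowest library for Stag2 (10.82) and Rad21 (11.62), and with the length pattern as a covariate the slopes were -0.31 for Stag2 and -0.20 for Rad21. The slope of Stag3 was 0.48 (95% interval 0.028 to 0.93) and that of Smc1b 0.26 (95% interval -0.20 to 0.71), and whether they differ from those of the counterparts was not tested.

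A further list of 29 meiotic genes, of which 27 were found and 23 tested, extended the same roles. Between the groups 0 of 23 were called by limma and 0 were at an unadjusted p under 0.05, and 13 had a higher Uba3 cKO mean, with a median difference of 0.0043. By deposited level its highest members were Sun1 at 11.26, Brca2 at 9.98 and Fignl1 at 9.78. SUN1 moves telomeres along the nuclear envelope, BRCA2 loads the recombinases and FIGNL1 is a regulator of them. Of this list 0 were called for a slope on the oocyte markers. At an unadjusted p under 0.05 there were 6 positive slopes (26.1%) and 4 negative ones (17.4%), against 9.87% and 9.84% of all genes. The shares were 16.4% and 2.74% of genes with means from 3.32 to 6, and 5.33% and 14.3% of those with means of at least 8. Of the positive ones, Kash5 (mean 6.58), Hsf2bp (6.275), Brme1 (7.65) and Zcwpw1 (6.36) lie between these ranges, where no share was taken. Kash5, the partner of SUN1 at telomeres, had a slope of 0.63 (limma adjusted p = 0.0751), Hsf2bp, a binding partner of BRCA2 in meiosis, of 0.53 (adjusted p = 0.113), and Brme1, which binds HSF2BP, of 0.45 (adjusted p = 0.0534). The others were Zcwpw1, a reader of the histone marks that PRDM9 writes (0.45), Shoc1, a crossover factor (0.43), and Meikin, a kinetochore protein of meiosis (0.26). Among the negative ones were Mcmdc2 (-0.30), Sun1 (-0.26) and Fbxo47 (-0.24). Top6bl, a partner of the break-forming enzyme with a mean of 3.27 and so not tested, ran from 3.14 to 3.27 in the control group and from 3.28 to 3.40 in the other. Those groups did not overlap, and the gap between them was far smaller than the spread within either. Groups without overlap were found in 0.32% of all tested genes and in 0 of the 23 tested here. No such share was taken for genes under the tested range.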

How the data were processed

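RNA-seq of 10 whole ovaries, 5 control and 5 Uba3 cKO, was read from 1 table. The authors deposited log2 values, not counts; the transform is not given in the sources used here, so no count model was run. Per the submitters' processing notes, fastp, STAR, featureCounts and DESeq2 were used with build GRCm39. Symbols and transcript lengths came from GENCODE M21 (GRCm38), and promoter windows from RefSeq GRCm38.p6.

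Genes whose mean reached 10 on the linear scale were fitted in limma 3.58.1 (R 4.3.3) with a mean-variance trend, and p-values were adjusted by Benjamini-Hochberg over all 15629 genes at a threshold of 0.05. The scripts were tested on simulated data. The fits were the group difference and the slope on 18 growing-oocyte markers with group as a covariate. The slope on stroma markers and the fits with a length slope as covariate (over 9182 genes whose mean reached 8) were added after seeing the data. The genes and lists were chosen with earlier results of these data known. Values per library are given for the highest gene of each of 10 roles, and for any gene at an unadjusted p under 0.05 or with groups that do not overlap in the group comparison. Stag3 and Tex14, given by library too, were picked with their values in view. Of the other lists, the 3 highest genes and those at an unadjusted p under 0.05 are named, except a few genes that are counted in the lists and not reported by name here.

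Marker lists of 12 cell types were summed as mean log2 levels. None passed between groups in an exact two-sided permutation test (p from 0.373 for granulosa to 0.944 for growing oocytes, the smallest possible being 0.00794). Alternatives were other filters, median centring, no trend, library weights, a replicate block, other covariates and leaving out each library.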

Additional observations from a re-analysis of the deposited data

Results flagged for a closer look

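In 8 of 56 checks of a gene within a group of 5 libraries, 1 library stood far from the other 4, with a gap to its nearest neighbour of over 0.71 of the group's range. Chance gives about 1 in 20 such checks if they are independent, but these checks share libraries. Among the flagged genes Syce1, Rec8, Hormad1 and Hormad2 lay under the tested range. Control replicate 2 was the highest control for Sycp3 (4.93, nearest 4.56), Syce1 (3.40, nearest 2.89) and Rec8 (2.90, nearest 2.71). Control replicate 3 was the lowest control for Mlh3 (8.74, nearest 9.12) and the highest for Hormad1 (0.12, nearest 0.07). Uba3 cKO replicate 1 was the highest of its group for Hormad1 (0.20, nearest 0.10) and Hormad2 (3.06, nearest 2.96), and Uba3 cKO replicate 5 for Meiob (4.96, nearest 4.70).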

How the results depend on the processing

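In the group comparison 0 of the 19 genes were called under any alternative; over all genes 1 was called with the length slope as covariate, against 0 otherwise reported. Some differences near 0 changed sign, all uncalled. With median centring Prdm9 was -0.002, Meiob -0.0038 and Tex11 -0.0032. With library weights Sycp1 was 0.0239, Prdm9 -0.0628, Meiob -0.0725, Mlh3 -0.0498, Tex11 -0.0064 and Tex15 -0.0727. With the oocyte level as covariate Sycp1 was 0.0048, Prdm9 -0.0026 and Meiob -0.0057. With the length slope as covariate Sycp1 was 0.0297, Prdm9 -0.0028, Meiob -0.0448, Mlh3 -0.0254, Tex11 -0.0025 and Tex15 -0.0283. Leaving out 1 library gave ranges of -0.066 to 0.060 for Sycp1, -0.0098 to 0.11 for Syce2, -0.086 to 0.038 for Tex12, -0.12 to 0.040 for Smc1b, -0.054 to 0.034 for Rec114, -0.10 to 0.080 for Prdm9, -0.11 to 0.063 for Meiob, -0.086 to 0.033 for Msh4, -0.075 to 0.046 for Mlh3, -0.044 to 0.041 for Tex11, -0.020 to 0.12 for Terb1, -0.031 to 0.092 for Ythdc2 and -0.11 to 0.12 for Tex15. The Msh5 slope on the oocyte markers ranged from -0.006 to 0.11.

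For the slope on the oocyte markers, 1 of the 19 genes was called as reported, 0 with no filter or with the germ cell identity list, 2 with no trend, with no group term or with the length slope as covariate, and 3 with library weights; leaving out 1 library gave 0 to 1. Over all genes 408 were called as reported, 857 with library weights, 48 with the germ cell identity list, and 121 (without Uba3 cKO replicate 5) to 401 (without control replicate 5) without 1 library. The causes were not tested. For the stroma slope 194 genes were called, 2065 with library weights and 40 to 276 without 1 library. With a replicate block, 0 of the 19 genes and 67 of all genes were called, and 0 of all genes for the stroma slope; the Syce2 slope was 0.53 (limma adjusted p = 0.226) and the Tex14 slope on stroma -0.92 (adjusted p = 0.775). Same-numbered libraries correlated between -0.338 and 0.318, and only replicate 5 correlated best with its own number, so the numbers were not taken to pair the samples. Depth is unknown, and the 10 libraries limit the precision.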
